A study of Mus musculus with 4 samples.

Results

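The adhesion receptors of transformed mouse blood progenitors were followed as a list of 35 genes: 15 integrin subunits, 6 tetraspanins, 3 selectin ligands, 10 molecules of the immunoglobulin type and 1 protocadherin. The genes were chosen by symbol, with earlier results of these data known, and each matched 1 of the 55426 genes in the deposited tables. RNA came from lineage-negative mouse bone marrow cells of the stem and progenitor type, transformed by MLL-ENL, a fusion that joins the front of the histone methyltransferase MLL to part of ENL, a reader of histone marks that acts with elongation factors. The mutant line, called MLL-ENL dYEATS here, carried a fusion that lacks the YEATS domain, the part of ENL that recognises acylated lysines of histones, and its label gives ENL residues 372 to 559. The line it was set against carried the MLL-ENL fusion, for which the sources used here give no ENL residues. Both lines were grown in the same serum-containing medium, and strain, sex and age of the mice are not given. Each group held 2 poly(A) libraries, which the design text of the series calls technical replicates, so every p-value below measures only the spread between these libraries, and the effect of the fusion cannot be told apart from other differences between the 2 lines.

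Integrins are pairs of an α and a β subunit that tie the cytoskeleton to matrix or to receptors on other cells, and they bind firmly only after talin and kindlin engage the β tail. Tetraspanins are small membrane proteins that gather integrins and other receptors into patches. Selectin ligands are heavily glycosylated proteins that slow cells on vessel walls, and immunoglobulin-type molecules join cells to one another or serve as counter-receptors of integrins. In bone marrow, α4β1 integrin with VCAM-1 and CD44 with hyaluronan hold progenitors in their niche, while the β2 integrins mark maturing myeloid cells.

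Totals were 28814798 and 28177480 expected counts in the MLL-ENL dYEATS libraries, against 28121268 and 27812855 in the MLL-ENL libraries. Of the 35 genes 30 passed the filter on low counts, and the other 5 (Itga2b, Itga9, Esam, F11r and Cadm1) had no more than 20 counts in any library. By edgeR's quasi-likelihood test with Benjamini-Hochberg adjustment over 13245 genes, 16.9% of all genes tested were called at an adjusted p under 0.05, 7.04% as higher and 9.84% as lower in MLL-ENL dYEATS cells. Among the 30 tested adhesion genes 8 were higher (Itgax, Cd9, Cd81, Cd82, Cd44, Pecam1, Milr1 and Pcdh7), 3 were lower (Itgae, Spn and Icam2) and 19 were not called, with a median log2 fold change of 0.28 against -0.01 over all genes tested. A call with at least a 4-fold difference was made for 5 of the 30, against 6.03% of all genes, and a call with at least a 2-fold difference for 7, against 10.6%. Since the list was chosen with earlier results of these data known, no excess over all genes can be read from these shares. The libraries of the 2 groups did not overlap in 21 of the 30 genes, a share near the 64.3% of all genes tested, and 10 of these 21 were not called.

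**Figure D1:**
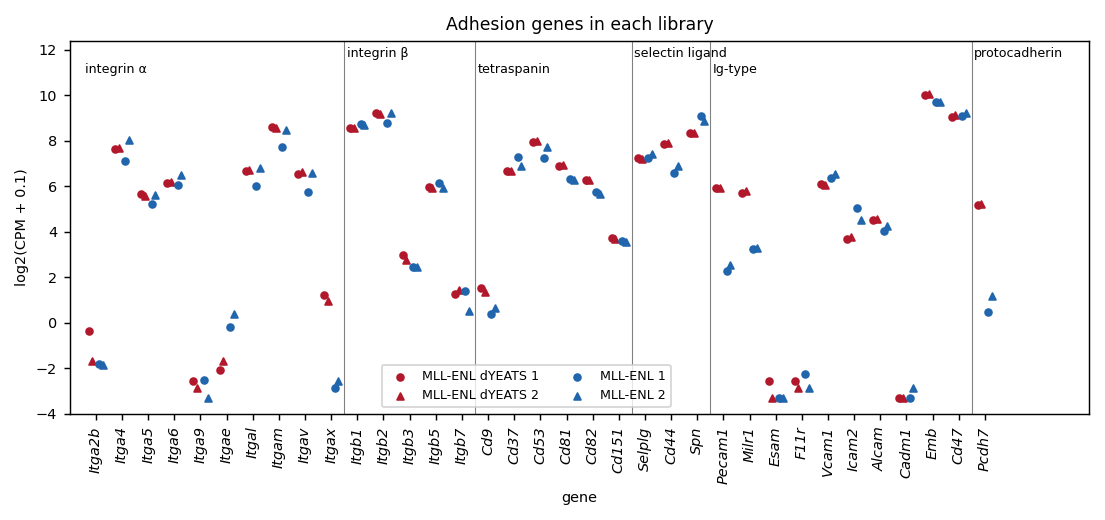
The y axis gives log2(CPM + 0.1) of each of the 35 adhesion genes (x axis) in each library, MLL-ENL dYEATS in red left of MLL-ENL in blue, with circles for replicate 1 and triangles for replicate 2. The widest gaps between the groups are those of Itgax, Pecam1, Milr1 and Pcdh7, and the blue symbols of most integrin α genes lie apart from each other.

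The MLL-ENL dYEATS libraries differed from each other less than the MLL-ENL libraries did, with an SD of the log2 ratio within the pair of 0.293, against 0.474 in the MLL-ENL pair. The difference between replicates had a Spearman's rho with exonic gene length of 0.0648 in the MLL-ENL dYEATS pair, against -0.391 in the MLL-ENL pair, over 13237 genes that share their libraries. In the MLL-ENL pair all 8 tested integrin α genes were lower in MLL-ENL replicate 1 than in replicate 2, among 19 of the 30 tested adhesion genes that were. Itgax, 1 of the 8, had only 1 and 2 counts there. The part of transcript length in these differences was not tested. Without MLL-ENL dYEATS replicate 1 the fit called 5 adhesion genes higher and 2 lower, at 10.9% of all genes called, and without MLL-ENL dYEATS replicate 2 it called 5 and 2, at 10.8%. Without MLL-ENL replicate 1 it called 14 and 11, at 57.2% of all genes, and without MLL-ENL replicate 2 it called 19 and 7, at 68.6%. For the labelled cell type, Kit, the stem cell factor receptor, stood at 2.62 and 3.91 CPM in MLL-ENL dYEATS libraries, against 50.4 and 66.9 CPM in MLL-ENL libraries. Gata2, a transcription factor of progenitors, stood at 10.01 and 10.12 CPM in MLL-ENL dYEATS libraries, against 0.56 and 0.605 CPM in MLL-ENL libraries. Of the 12 stem and progenitor markers 5 were tested, of which 1 rose (Gata2) and 4 fell, and the sum was 72.3 and 68.7 CPM in MLL-ENL dYEATS libraries, against 167.3 and 181.5 CPM in MLL-ENL libraries. Slamf1 and Mycn were at 0 in all 4 libraries, and Cd34 had 3 counts in each MLL-ENL dYEATS library and 0 in the MLL-ENL libraries. The 8 markers of granulocyte-monocyte progenitors summed to 3758 and 3783 CPM in MLL-ENL dYEATS libraries, against 7570 and 6385 CPM in MLL-ENL libraries, with 5 of 8 called lower and the other 3 not called.

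By edgeR's test 0 of the 5 β subunits were called (1 at an unadjusted p under 0.05, Itgb3, and 0 by DESeq2), against 16.9% of all genes tested. With only 5 genes, this count cannot be told apart from that share. Per length the β subunits include the most abundant integrin mRNAs, Itgb2 and Itgb1. Itgb2, the β2 chain shared by the leukocyte integrins, had 605.7 and 579.6 CPM in MLL-ENL dYEATS libraries, against 435.7 and 594.6 CPM in MLL-ENL libraries (log2 fold change 0.20 ± 0.17 SE, adjusted p = 0.459), and the groups overlapped. Itgb1, the β1 chain of the matrix receptors, had 374.0 and 373.3 CPM in MLL-ENL dYEATS libraries and 429.9 and 416.5 CPM in MLL-ENL libraries (log2 fold change -0.18 ± 0.10 SE, adjusted p = 0.275). Its groups were separate, by a difference that did not pass the test. Itgb5, which pairs with αv, was near 61 CPM in both MLL-ENL dYEATS libraries, against 70.1 and 60.95 CPM in MLL-ENL libraries. The low subunits were Itgb3, the β chain of the platelet integrin and of the vitronectin receptor, with 7.73 and 6.67 CPM in MLL-ENL dYEATS libraries against 5.38 and 5.30 CPM in MLL-ENL libraries (adjusted p = 0.135), and Itgb7, the chain of gut-homing integrins, with 2.28 and 2.58 CPM against 2.54 and 1.35 CPM in MLL-ENL libraries (adjusted p = 0.548).

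Among the α subunits 1 of 8 tested genes rose and 1 fell, both at low levels of expression, against 7.04% and 9.84% of all genes tested. Itgax, which encodes CD11c, an α partner of β2 used as a marker of dendritic cells and some macrophages, had 2.25 and 1.85 CPM in MLL-ENL dYEATS libraries (66 and 53 counts), against 0.0373 and 0.0711 CPM in MLL-ENL libraries (1 and 2 counts). The gene rose in MLL-ENL dYEATS cells with a log2 fold change of 5.12 ± 0.43 (SE, n = 2 each, adjusted p = 0.00169). Because the MLL-ENL libraries hold 3 counts together, the ratio of normalised counts is better given as 37.5 with a 95% counting interval of 12.5 to 185. In bulk RNA more cells with the transcript and more transcript per cell cannot be told apart, for this gene as for those that follow.

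Of the 9 dendritic cell markers listed, which leave out Itgax, 2 were at 0 everywhere (H2-Aa and Cd209a), 1 was tested and fell (H2-Ab1), and the sum was 0.443 and 0.663 CPM in MLL-ENL dYEATS libraries, against 4.59 and 3.66 CPM in MLL-ENL libraries. That sum was carried by H2-Ab1, and the other markers together had 0.375 and 0.663 CPM in MLL-ENL dYEATS libraries, against 0.187 and 0.213 CPM in MLL-ENL libraries. Of the 12 monocyte and macrophage markers 6 were tested, of which 5 rose (Csf1r, Adgre1, Ccr2, Mpeg1 and Cd68) and 1 fell (Ly6c2, the most abundant of them). The macrophage genes C1qa, C1qb and C1qc were at 0 in all libraries. The monocyte and macrophage list summed to 891 and 914 CPM in MLL-ENL dYEATS libraries and to 1195 and 1163 CPM in MLL-ENL libraries. Most of each sum was Ly6c2, at 661 and 694 CPM in MLL-ENL dYEATS libraries, against 1086 and 1020 CPM in MLL-ENL libraries. The sums thus followed Ly6c2 and not the 5 genes that rose. The part of this list in the rise of Itgax was not tested. Of 11 neutrophil markers 10 were tested, of which 6 rose and 1 fell (Ngp), with sums of 395 and 411 CPM in MLL-ENL dYEATS libraries, against 160 and 134 CPM in MLL-ENL libraries. Most of the sum in MLL-ENL dYEATS libraries was S100a8 and S100a9. S100a8 had 124.1 and 143.1 CPM there, against 34.7 and 25.2 CPM in MLL-ENL libraries, and S100a9 had 199.6 and 195.6 CPM, against 42.8 and 38.1 CPM. The granule genes Camp and Ltf, and Ly6g, were lower by differences that were not called.

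Itgax lies on chromosome 7 (GRCm38 chr7:128129547-128150657, plus strand), 11056 bases past the end of Itgam (chr7:128062640-128118491, plus strand), and Itgal (chr7:127296260-127335138, plus strand) and Spn lie on the same chromosome. Itgam, which encodes CD11b, the α chain of the complement receptor Mac-1, had 387.7 and 382.0 CPM in MLL-ENL dYEATS libraries, against 212.3 and 358.6 CPM in MLL-ENL libraries. Its groups were separate, by little next to the gap within the MLL-ENL pair, and the difference was not called (0.43 ± 0.25 SE, adjusted p = 0.292). Itgal, the α chain of LFA-1, had 102.5 and 104.4 CPM in MLL-ENL dYEATS libraries and 65.0 and 110.3 CPM in MLL-ENL libraries, which overlap (adjusted p = 0.555). Of the 10 tested genes within 200 kb of Itgax, a window chosen after the values were seen, 0 were called by edgeR, Itgam among them, while 3 were lower at an unadjusted p under 0.05 and DESeq2 called 1 lower.

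The promoter window of Itgax, from 250 bases before to 50 bases after its RefSeq start, is printed because the gene rose while its neighbour Itgam was not called. RefSeq, build GRCm38.p6, plus strand of chr7:128129300-128129599, is written 5′ to 3′ with motif matches in capitals.
Itgax: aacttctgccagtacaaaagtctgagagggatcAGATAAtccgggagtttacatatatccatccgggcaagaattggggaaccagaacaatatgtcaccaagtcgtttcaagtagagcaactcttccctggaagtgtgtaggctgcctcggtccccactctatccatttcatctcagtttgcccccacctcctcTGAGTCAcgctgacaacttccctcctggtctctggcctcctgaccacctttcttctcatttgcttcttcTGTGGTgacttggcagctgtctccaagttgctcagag
The capitals mark, in order, the GATA motif AGATAA from base 34, the AP-1 motif TGANTCA from base 195 and the RUNX motif TGTGGT from base 264, and no matches overlap. The PU.1 motif GAGGAA was not matched on either strand. Over 32851 promoter windows of the same length, searched on both strands, AGATAA was in 11.2%, TGANTCA in 7.81%, TGTGGT in 16.8% and GAGGAA in 28.3%. The 24 adhesion genes in the RefSeq table have 29 windows, of which 2 hold AGATAA, 3 hold TGANTCA, 6 hold TGTGGT and 13 hold GAGGAA. These matches are letters in a window and not binding sites.

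Itgae, which encodes αE (CD103), the partner of β7 on intraepithelial lymphocytes and some dendritic cells, was the α subunit that fell. It had 0.136 and 0.209 CPM in MLL-ENL dYEATS libraries (4 and 6 counts), against 0.784 and 1.21 CPM in MLL-ENL libraries (21 and 34 counts), and the log2 fold change was -2.50 ± 0.44 (SE, adjusted p = 0.0187). All libraries were low and the groups were separate. The call was not made on log2(FPKM + 1), where the difference was -0.28 (adjusted p = 0.0948). The gene spans chr11:73090583-73147446 on the plus strand, and of the 10 tested genes within 200 kb 0 were called by edgeR or DESeq2, with 1 higher and 1 lower at an unadjusted p under 0.05. Of the 8 T and NK cell markers 5 were at 0 everywhere (Cd3e, Cd3g, Cd4, Cd8a and Ncr1) and 1 was tested and fell (Thy1), with sums of 0.238 and 0 CPM in MLL-ENL dYEATS libraries, against 4.18 and 3.17 CPM in MLL-ENL libraries. Without Thy1 that sum was 0.102 and 0 CPM in MLL-ENL dYEATS libraries, against 0 and 0.0356 CPM in MLL-ENL libraries. Of the dendritic list given with Itgax, H2-Ab1 was lower as well and the sum of the rest was not, and the part of Thy1 and H2-Ab1 in the fall of Itgae was not tested.

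The other tested α subunits were not called. Itga4, the α4 chain of the VCAM-1 receptor, had 200.5 and 203.5 CPM in MLL-ENL dYEATS libraries, against 138.0 and 263.5 CPM in MLL-ENL libraries, whose means of 202 ± 2.18 and 201 ± 88.8 CPM (SD, n = 2 each) show how wide the MLL-ENL pair is for this gene. Itgav, the αv chain of the vitronectin receptors, had 92.6 and 97.4 CPM in MLL-ENL dYEATS libraries, against 53.9 and 96.6 CPM in MLL-ENL libraries. Itga5, the fibronectin receptor chain, had 49.96 and 47.3 CPM against 36.9 and 48.6 CPM in MLL-ENL libraries, and Itga6, the laminin receptor chain, had 70.6 and 71.9 CPM against 65.7 and 89.5 CPM. In each of these 4 genes the MLL-ENL dYEATS libraries overlapped the range of the MLL-ENL pair. Their log2 fold changes lay between -0.12 and 0.34, with adjusted p-values of 0.447 or more. Itga2b, which encodes αIIb, the platelet partner of β3, had 20 and 6 counts in MLL-ENL dYEATS libraries, against 5 and 5 counts in MLL-ENL libraries, and Itga9 had 2 and 1 against 2 and 0, and neither was tested. Itga2b and Itgb3 are on the same chromosome, 2137878 bases apart.

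Per length, the β2 family was led by Itgam in every library. In FPKM, levels that the authors scaled by length and depth, Itgb2 stood at 268.9 and 259 in MLL-ENL dYEATS libraries, against 167.3 and 254 in MLL-ENL libraries, and its α partners (Itgal, Itgam, Itgax and Itgad) summed to 116 and 114 FPKM, against 59.0 and 109 FPKM. The ratio of Itgb2 to these partners was thus 2.33 and 2.28 in MLL-ENL dYEATS libraries, against 2.84 and 2.34 in MLL-ENL libraries. Itgam made up 78.9% of the partner sum in both MLL-ENL dYEATS libraries, against 78.4% and 77.2% in MLL-ENL libraries, so this share hardly moved while Itgax went up. Even after its rise Itgax made up 0.528% and 0.440% of the partner sum in MLL-ENL dYEATS libraries, against 0.0170% and 0.0184% in MLL-ENL libraries. Itgb1 stood at 109 and 108 FPKM in MLL-ENL dYEATS libraries, against 117 and 120.4 FPKM in MLL-ENL libraries, and the ratio of Itgb1 to the sum of its 12 α partners was 1.33 ± 0.0339 in MLL-ENL dYEATS libraries, against 1.66 ± 0.61 in MLL-ENL libraries (SD, n = 2 each). The sum for Itgb1 includes Itga4 and Itgav, which also pair with other β chains. These ratios compare mRNA and not protein pairs, and in the MLL-ENL pair each moved with replicate.

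**Figure D2:**
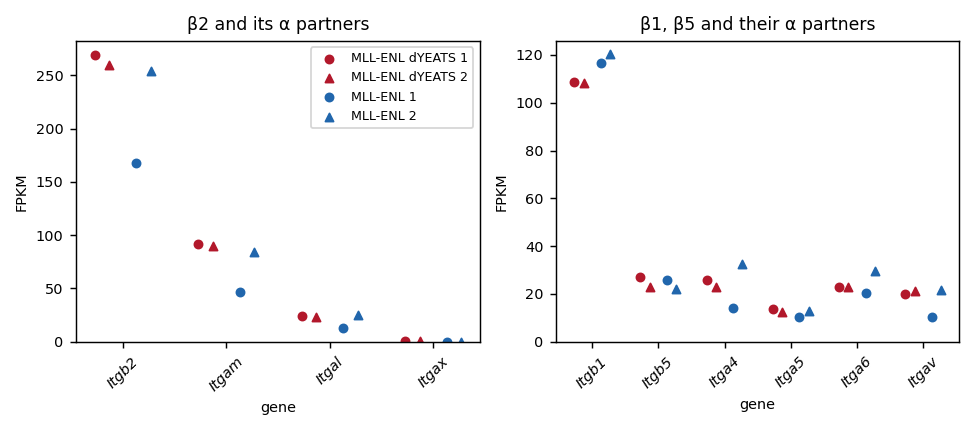
FPKM (y axis) of Itgb2 with Itgam, Itgal and Itgax (left) and of Itgb1, Itgb5 and α partners (right), with MLL-ENL dYEATS libraries in red left of MLL-ENL libraries in blue. The red symbols of most genes lie close together, but those of Itgb5 (27.25 and 23.05 FPKM) lie as far apart as its blue ones (25.97 and 22.06 FPKM). MLL-ENL replicate 1 lies below replicate 2 in Itgb2 (167.3 and 254 FPKM) and in all α genes shown.

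Of the 6 tetraspanins 3 rose and 0 fell (1 was lower at an unadjusted p under 0.05, Cd37, and 0 by DESeq2), with changes under 2-fold, and the median log2 fold change of the class was 0.51. Over all genes tested 7.04% rose and 9.84% fell. Cd81, a partner of integrins and of the B-cell co-receptor, had 120.4 and 124.0 CPM in MLL-ENL dYEATS libraries, against 79.3 and 76.9 CPM in MLL-ENL libraries (0.65 ± 0.10 SE, adjusted p = 0.014). Cd82, known for holding stem cells quiescent and for suppressing metastasis, had 76.5 and 77.3 CPM in MLL-ENL dYEATS libraries, against 53.4 and 50.6 CPM in MLL-ENL libraries (0.57 ± 0.11 SE, adjusted p = 0.0224). Both pairs of libraries were tight in these genes and the groups were separate, at 1.56-fold and 1.48-fold. Cd9, a tetraspanin of platelets, megakaryocytes and early progenitors, stood at a low level throughout, with 2.79 and 2.44 CPM in MLL-ENL dYEATS libraries and 1.19 and 1.46 CPM in MLL-ENL libraries (0.98 ± 0.23 SE, adjusted p = 0.0453).

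The calls of Cd81 (adjusted p = 0.232 and 0.293), Cd82 (0.372 and 0.394) and Cd9 (0.325 and 0.158) were lost with either MLL-ENL dYEATS library left out, replicate 1 first, and that of Cd9 also with DESeq2 (0.153), limma-voom (0.193), log2(FPKM + 0.1) (0.0643) and log2(FPKM + 1) without a filter (0.158), so that it was made in 8 of 14 alternatives. The other tetraspanins were not called. Cd53, a leukocyte tetraspanin, had 244.6 and 255.6 CPM in MLL-ENL dYEATS libraries, against 153.6 and 209 CPM in MLL-ENL libraries (adjusted p = 0.125). Cd37, also a leukocyte tetraspanin, had 101 and 103 CPM in MLL-ENL dYEATS libraries and 155.6 and 119 CPM in MLL-ENL libraries (adjusted p = 0.128). Their groups were separate in opposite directions. Cd151, the tetraspanin bound to laminin receptors, was at 13.1 and 12.6 CPM in MLL-ENL dYEATS libraries, against 11.9 and 11.7 CPM in MLL-ENL libraries (adjusted p = 0.513). Of 10 megakaryocyte markers 2 were at 0 everywhere, Treml1 among them, and 1 was tested and not called. Their sum was 1.29 and 1.74 CPM in MLL-ENL dYEATS libraries, against 2.50 and 1.39 CPM in MLL-ENL libraries. The part of these markers in the rise of Cd9 was not tested.

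**Figure D3:**
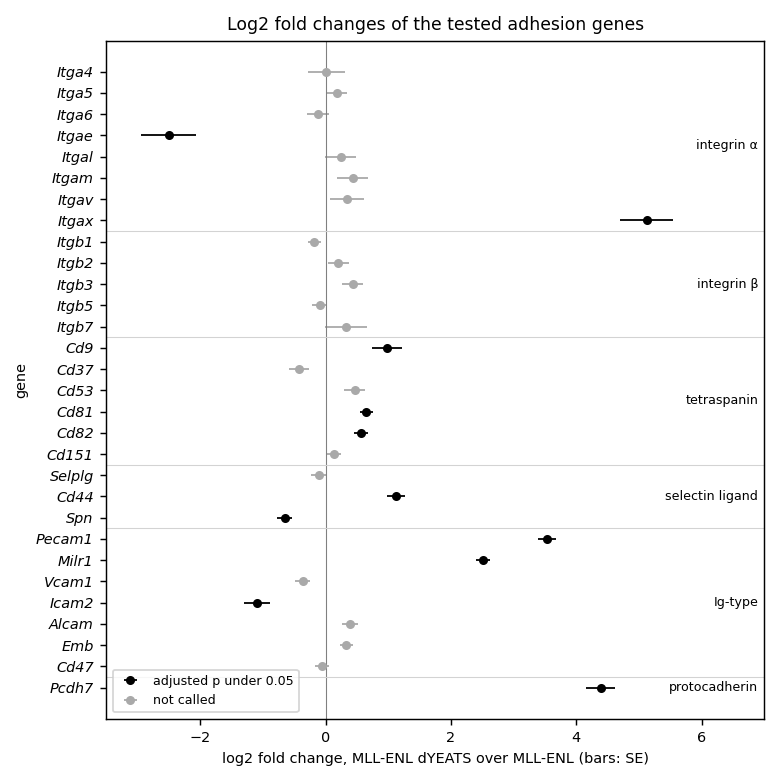
Log2 fold change of MLL-ENL dYEATS over MLL-ENL (x axis) for the 30 tested adhesion genes, by class, with bars of 1 SE, black where called and grey where not. Itgax (5.12), Pcdh7 (4.39), Pecam1 (3.53) and Milr1 (2.51) lie farthest to the right and Itgae (-2.50) farthest to the left, while the 5 β integrins lie near 0.

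The 3 selectin ligands went 3 ways. Cd44, the hyaluronan receptor, had 229.7 and 236.1 CPM in MLL-ENL dYEATS libraries, against 94.7 and 119 CPM in MLL-ENL libraries. It rose 2.18-fold (log2 fold change 1.13 ± 0.14 SE, adjusted p = 0.00654), with groups well apart. Spn, which encodes CD43, a large sialomucin of leukocytes, fell to 323.7 and 320.8 CPM in MLL-ENL dYEATS libraries, against 546.3 and 467.1 CPM in MLL-ENL libraries (-0.65 ± 0.12 SE, adjusted p = 0.0213). The groups were separate, and the call was lost with MLL-ENL dYEATS replicate 1 left out (adjusted p = 0.294) or replicate 2 left out (0.33). Selplg, which encodes PSGL-1, the main P-selectin ligand, had 152.4 and 148.6 CPM in MLL-ENL dYEATS libraries, against 152.8 and 172.8 CPM in MLL-ENL libraries (adjusted p = 0.537). Spn (chr7:127132232-127137823, minus strand) lies 158437 bases from Itgal.

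The largest changes among immunoglobulin-type molecules were in neighbours on chromosome 11. Pecam1, which encodes CD31, a homophilic and inhibitory receptor of endothelium, platelets and leukocytes, had 60.5 and 59.95 CPM in MLL-ENL dYEATS libraries (1777 and 1718 counts), against 4.74 and 5.65 CPM in MLL-ENL libraries (127 and 159 counts). It rose 11.6-fold, with means of 60.2 ± 0.404 and 5.20 ± 0.645 CPM (SD, n = 2 each) and a log2 fold change of 3.53 ± 0.14 (SE, adjusted p = 0.000329). Milr1, which encodes Allergin-1, an inhibitory receptor of mast cells and other myeloid cells, had 52.7 and 55.0 CPM in MLL-ENL dYEATS libraries, against 9.34 and 9.57 CPM in MLL-ENL libraries. It rose 5.70-fold (log2 fold change 2.51 ± 0.12 SE, adjusted p = 0.000365). In both genes each pair of libraries was tight and the groups lay far apart, and the calls stood under all 15 alternatives run.

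No endothelial marker was called beside Pecam1. Of the 10 listed, which leave out Pecam1, Cdh5, Kdr, Tie1 and Emcn were at 0 in all libraries, 3 were tested and 0 called by edgeR or DESeq2 (0 at an unadjusted p under 0.05), and the sum of 12.9 and 13.2 CPM in MLL-ENL dYEATS libraries, against 16.4 and 11.9 CPM in MLL-ENL libraries, was mostly Egfl7. Of the 10 mast cell and basophil markers 7 were at 0 everywhere, among them Cpa3, Fcer1a and Tpsb2, and Hdc, the histidine decarboxylase gene, fell. Their sum was 7.53 and 8.90 CPM in MLL-ENL dYEATS libraries, against 18.0 and 14.9 CPM in MLL-ENL libraries. The part of either list in the rise of Pecam1 or Milr1 was not tested.

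Pecam1 (GRCm38 chr11:106654217-106750628, minus strand) and Milr1 (chr11:106751226-106768794, plus strand) run away from each other, and the start of the annotated transcript Pecam1-201 is 598 bases from that of Milr1. All other annotated Pecam1 transcripts start 35832 bases or more from Milr1. The window between 250 bases before and 50 bases after the RefSeq start of Milr1 is printed because its first 250 bases lie between these 2 genes that rose (RefSeq, build GRCm38.p6, plus strand of chr11:106750976-106751275, 5′ to 3′, motif matches in capitals).
Milr1: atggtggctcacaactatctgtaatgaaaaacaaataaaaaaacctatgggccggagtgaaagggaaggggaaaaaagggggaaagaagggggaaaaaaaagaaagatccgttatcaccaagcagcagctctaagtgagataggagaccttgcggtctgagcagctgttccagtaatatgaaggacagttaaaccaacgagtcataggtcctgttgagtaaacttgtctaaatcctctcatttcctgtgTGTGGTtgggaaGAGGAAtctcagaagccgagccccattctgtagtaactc
The capitals mark the RUNX motif TGTGGT from base 250 and the PU.1 motif GAGGAA from base 262, which do not overlap, and the AP-1 and GATA motifs were not matched. The RUNX match begins at the last base before the start of Milr1 and runs into the gene, and the PU.1 match lies within Milr1. Against 16.9% of all genes tested, 3 of the 7 tested genes within 200 kb of Pecam1, a window chosen after the values were seen, were called. Besides Milr1 these were Tex2, a lipid-transfer protein gene, which fell to 53.8 ± 2.59 CPM in MLL-ENL dYEATS libraries, against 145 ± 9.24 CPM in MLL-ENL libraries (SD, n = 2 each, log2 fold change -1.43, adjusted p = 0.00157), and Polg2, the accessory subunit of the mitochondrial polymerase, at 10.3 ± 0.665 CPM against 5.31 ± 0.621 CPM in MLL-ENL libraries (0.96, adjusted p = 0.0159). The genes on either side of Pecam1 thus changed in opposite directions, and Ern1, Ddx5, Cep95 and Smurf2 were not called. Polg2 runs against Milr1 and overlaps its end by 542 bases, and the strand setting of the counting is not given, so reads there cannot be assigned to one or the other.

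**Figure D4:**
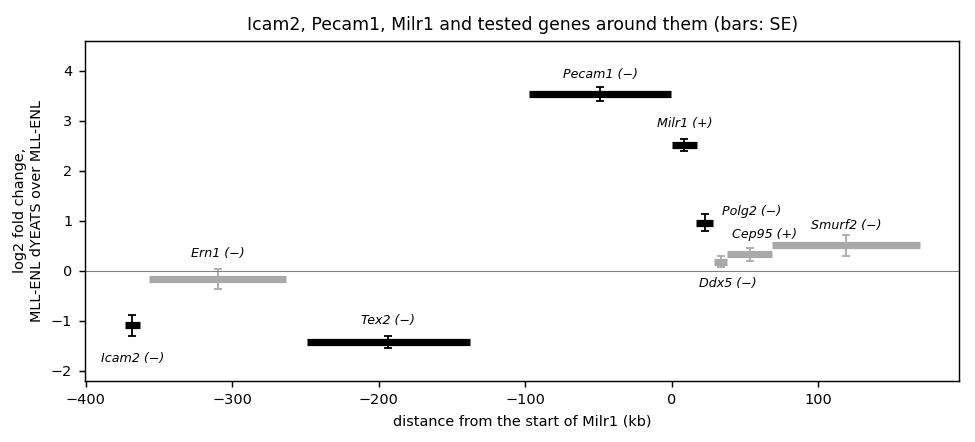
Log2 fold change (y axis, bars of 1 SE) of Icam2, Pecam1, Milr1 and the tested genes around Pecam1 against distance from the start of Milr1 in kb (x axis), with each gene body drawn to scale, its strand in brackets, black where called and grey where not. Pecam1 (3.53) and Milr1 (2.51) stand above the line on either side of the start, and Tex2 (-1.43) and Icam2 (-1.10) below it.

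For Pecam1 the 2 deposited tables gave different folds: 11.6 from counts, and 4.68 from FPKM, with 26.1 and 26.5 FPKM in MLL-ENL dYEATS libraries against 5.48 and 5.77 FPKM in MLL-ENL libraries. FPKM divides by a length that RSEM derives from the transcripts to which it assigned the reads. The 2 tables together thus give an implied length for each gene and library. Implied length is not annotated length. Cd53, whose only annotated transcript has 1742 bases, was at 1451 and 1453 bases in MLL-ENL dYEATS libraries, against 1461 and 1446 bases in MLL-ENL libraries. For Pecam1 this was 2363 and 2301 bases in MLL-ENL dYEATS libraries, against 824 and 991 bases in MLL-ENL libraries, a ratio of 2.57. The reads of Pecam1 were thus assigned to longer transcripts in both MLL-ENL dYEATS libraries. Among the 25 adhesion genes with at least 100 counts in every library, the other 24 had ratios from 0.868 (Cd47) to 1.05 (Itga5). Of 9463 genes with that many counts 0.0106%, which is Pecam1 alone, had an implied length at least 2-fold longer in MLL-ENL dYEATS libraries with separate groups, 0.0211% differed at least 2-fold in either direction and 0.159% at least 1.5-fold. This measure was chosen after the values were seen and has no test. The 8 annotated Pecam1 transcripts run from 681 to 3441 bases, a scale on which the implied lengths cannot be placed directly. Only Pecam1-201 starts close to Milr1, at 598 bases. All others start 35832 bases or more from it, Pecam1-204 being the nearest of them. Which transcripts the cells held was not tested, since the files give values per gene.

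**Figure D5:**
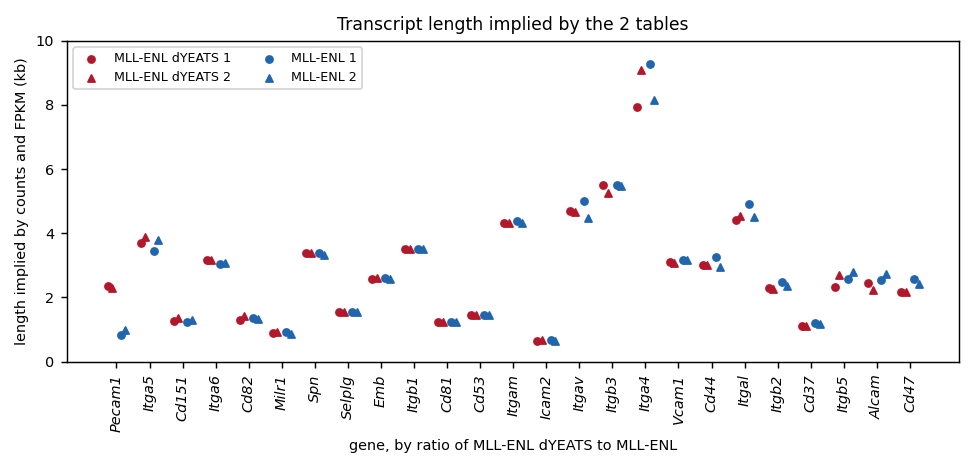
Length in kb implied by expected counts and FPKM (y axis) for the 25 adhesion genes with at least 100 counts in every library (x axis, ordered by the ratio of MLL-ENL dYEATS to MLL-ENL), with MLL-ENL dYEATS libraries in red left of MLL-ENL libraries in blue. Implied length is not annotated transcript length. Only Pecam1, at 2363 and 2301 bases against 824 and 991 bases, has red and blue symbols more than 1.5-fold apart.

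Icam2, a ligand of LFA-1 on endothelium, platelets and leukocytes, fell. It had 12.6 and 13.5 CPM in MLL-ENL dYEATS libraries, against 33.3 and 22.7 CPM in MLL-ENL libraries (log2 fold change -1.10 ± 0.21 SE, adjusted p = 0.0223). The groups were separate, with the MLL-ENL pair the wider. Icam2 lies at chr11:106377656-106388075 on the minus strand, 266142 bases from Pecam1, which moved the other way. The other tested molecules of this class were not called. Emb, embigin, a partner of monocarboxylate transporters and the adhesion gene with the highest FPKM, had 1025 and 1061 CPM in MLL-ENL dYEATS libraries, against 834.8 and 824.1 CPM in MLL-ENL libraries (0.33 ± 0.10 SE, adjusted p = 0.0896). Vcam1, the α4β1 ligand, had 69.4 and 67.0 CPM in MLL-ENL dYEATS libraries, against 81.9 and 93.7 CPM in MLL-ENL libraries (-0.36 ± 0.12 SE, adjusted p = 0.1). Alcam, the CD6 ligand, had 22.6 and 23.8 CPM in MLL-ENL dYEATS libraries and 16.4 and 18.9 CPM in MLL-ENL libraries (adjusted p = 0.0963). In these 3 genes the groups were separate by small differences. Cd47, the signal that protects cells from phagocytosis, had 534.3 and 557.8 CPM in MLL-ENL dYEATS libraries, against 540.3 and 597.5 CPM in MLL-ENL libraries, and overlapped. The junction molecules Esam, F11r and Cadm1 had no more than 3 counts in any library, and no fold is given for them.

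Pcdh7, a protocadherin of the cell surface known from neurons and tumours, rose in MLL-ENL dYEATS cells. It had 35.6 and 36.9 CPM in MLL-ENL dYEATS libraries (1044 and 1056 counts), against 1.31 and 2.13 CPM in MLL-ENL libraries (35 and 60 counts). The groups were 20.9-fold apart, with means of 36.2 ± 0.914 and 1.72 ± 0.585 CPM (SD, n = 2 each) and a log2 fold change of 4.39 ± 0.23 (SE, adjusted p = 0.000453). The gene spans chr5:57717967-58133230 on the plus strand. The only tested gene within 200 kb, 4932441J04Rik, runs on the minus strand and overlaps the start of Pcdh7 by 2235 bases. It had 1.63 and 2.27 CPM in MLL-ENL dYEATS libraries, against 0 and 0.178 CPM in MLL-ENL libraries (adjusted p = 0.0142), and without a stated strand setting its reads and those of Pcdh7 cannot be told apart where they overlap. The Pcdh7 window is printed as the third one of an adhesion gene called with at least a 4-fold difference (RefSeq, build GRCm38.p6, plus strand of chr5:57717831-57718130, 5′ to 3′).
Pcdh7: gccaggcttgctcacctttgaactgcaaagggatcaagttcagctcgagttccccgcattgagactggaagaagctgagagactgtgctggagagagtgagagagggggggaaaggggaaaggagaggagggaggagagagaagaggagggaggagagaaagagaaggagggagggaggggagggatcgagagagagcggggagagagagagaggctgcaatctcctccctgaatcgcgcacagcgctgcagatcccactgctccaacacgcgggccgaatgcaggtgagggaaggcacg
It has no capitals because none of the 4 motifs was matched in it on either strand. Pecam1 and Itgae are not printed.

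By level per length, 8 adhesion genes averaged over 100 FPKM across the 4 libraries. Emb led with 362 FPKM, followed by Cd47 with 241, Itgb2 with 237, Cd53 with 149, Spn with 122, Itgb1 with 113, Cd37 with 103 and Selplg with 101 FPKM. Of these 8 only Spn was called. From Cd47 on, the ranges over libraries of genes next to each other in this order overlapped. In MLL-ENL dYEATS libraries alone, Spn (96.9), Cd37 (93.7) and Selplg (98.4) averaged under 100 FPKM, while Cd81 averaged 100.5 FPKM. The genes with the largest folds stood lower: Milr1 averaged 35.1 FPKM, Pecam1 16.0 FPKM, Pcdh7 3.65 FPKM and Itgax 0.285 FPKM.

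The machinery around the receptors was described with 135 further genes, also chosen with earlier results of these data known. Of these, 85 were tested, 8 rose and 18 fell (30.6% of those tested, against 16.9% of all genes), with a median log2 fold change of -0.13. Of the other integrin subunits 3 of 11 were tested and 0 were called by edgeR or DESeq2, with 1 lower at an unadjusted p under 0.05. Of the proteins that switch integrins on 14 of 17 were tested, 0 rose (1 was higher at an unadjusted p under 0.05, 0 by DESeq2) and 3 fell. Tln2, a talin, fell to 18.8 ± 1.31 CPM in MLL-ENL dYEATS libraries, against 39.5 ± 9.33 CPM in MLL-ENL libraries (SD, n = 2 each, log2 fold change -1.07, adjusted p = 0.019). Cyth1, cytohesin-1, which binds the β2 tail, changed by -0.60 (adjusted p = 0.0291), and Fermt3, the kindlin of blood cells, by -0.44, at 325 ± 13.4 CPM in MLL-ENL dYEATS libraries and 442 ± 9.14 CPM in MLL-ENL libraries (adjusted p = 0.0417). The calls of Cyth1 (adjusted p = 0.308 and 0.416) and Fermt3 (0.548 and 0.677) were lost with either MLL-ENL dYEATS library left out, and those of Fermt3 with library totals as scaling (0.0618) and of Tln2 on log2(FPKM + 0.1) (0.0506) were lost as well.

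Of the proteins of the adhesion site 18 of 23 were tested, 2 rose and 3 fell. Vcl, vinculin, which links talin to actin, rose to 109 ± 3.03 CPM in MLL-ENL dYEATS libraries, against 48.3 ± 18.1 CPM in MLL-ENL libraries (SD, n = 2 each, 1.17 ± 0.26 SE, adjusted p = 0.0366). Actn1, the actin cross-linker α-actinin-1, rose to 171 ± 2.25 CPM, against 106 ± 15.8 CPM in MLL-ENL libraries (0.70, adjusted p = 0.0263). Parvb, β-parvin, a partner of integrin-linked kinase, fell to 1.38 ± 0.22 CPM, against 8.03 ± 0.418 CPM in MLL-ENL libraries (-2.54 ± 0.20 SE, adjusted p = 0.00144). Tns1, tensin-1, fell to 0.121 CPM against 2.14 CPM (-4.10 ± 0.39 SE, adjusted p = 0.00244). It had only 3 and 4 counts in MLL-ENL dYEATS libraries, against 49 and 69 counts in MLL-ENL libraries, so the size of its fold is uncertain. Members of the same site thus changed in both directions. Of 8 kinases that act at integrins 7 were tested, 2 rose and 2 fell, among them Csk, which restrains the Src family and fell to 129 ± 1.32 CPM in MLL-ENL dYEATS libraries, against 186 ± 14.4 CPM in MLL-ENL libraries (-0.53, adjusted p = 0.0317). With either MLL-ENL dYEATS library left out the calls of Actn1 (adjusted p = 0.183 and 0.225) and Csk (0.464 and 0.485) were lost, and on log2(FPKM + 1) that of Vcl was (0.0614).

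Of 20 matrix ligands 7 were tested, 1 rose and 4 fell. Spp1, osteopontin, a ligand of αv and α4 integrins and of CD44, rose to 123.9 ± 0.604 CPM in MLL-ENL dYEATS libraries, against 12.3 ± 1.04 CPM in MLL-ENL libraries (SD, n = 2 each, log2 fold change 3.33 ± 0.13 SE, adjusted p = 0.000325). Thbs1, thrombospondin-1, a ligand of CD47, fell to 265 ± 2.33 CPM, against 1343 ± 527 CPM in MLL-ENL libraries (-2.34 ± 0.28 SE, adjusted p = 0.00549). The receptors of these ligands did not all change with them: Cd44 rose, while Itgav, Itga4 and Cd47 were not called. Col4a1, a basement-membrane collagen, and Fbn1, fibrillin-1, fell as well, at levels under 4 CPM in every library (adjusted p = 0.0138 and 0.0415), and both calls were lost on log2(FPKM + 1) (0.0891 and 0.11).

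Of 23 other immunoglobulin-type molecules 12 were tested, 2 rose and 3 fell. Pvr, the poliovirus receptor and a nectin-like adhesion molecule, rose to 26.8 ± 0.734 CPM in MLL-ENL dYEATS libraries, against 10.8 ± 1.02 CPM in MLL-ENL libraries (SD, n = 2 each, 1.32 ± 0.13 SE, adjusted p = 0.00269), and L1cam, a neural adhesion molecule, rose at low levels (1.63, adjusted p = 0.0206, and 0.0641 with DESeq2). Ncam1, another neural one, fell to 108 ± 3.76 CPM, against 206 ± 16.4 CPM in MLL-ENL libraries (-0.92, adjusted p = 0.00604). Icam1, like Icam2 a ligand of LFA-1, fell to 10.4 ± 0.178 CPM, against 19.0 ± 0.915 CPM in MLL-ENL libraries (-0.87, adjusted p = 0.00866). Cd48, which also stands in the list of stem and progenitor markers, had 1 and 2 counts in MLL-ENL dYEATS libraries, against 94 and 139 counts in MLL-ENL libraries, a ratio of MLL-ENL over MLL-ENL dYEATS of 82.1 with a 95% counting interval of 27.7 to 401. With MLL-ENL dYEATS replicate 1 left out the calls of Icam1 (adjusted p = 0.0902) and Ncam1 (0.0751) were lost, and with replicate 2 left out that of Icam1 was (0.0621).

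Of the selectins and the enzymes that decorate their ligands 13 of 15 were tested, 0 rose (1 was higher at an unadjusted p under 0.05, 0 by DESeq2) and 2 fell. Fut7, the fucosyltransferase that makes selectin ligands, fell to 14.6 ± 0.665 CPM in MLL-ENL dYEATS libraries, against 27.2 ± 0.785 CPM in MLL-ENL libraries (SD, n = 2 each, -0.90, adjusted p = 0.00693). Its call was lost with MLL-ENL dYEATS replicate 1 left out (adjusted p = 0.085). Of 18 other tetraspanins 11 were tested, 1 rose and 1 fell, the riser being Tspan9, a platelet tetraspanin, with 2.17 ± 0.499 CPM in MLL-ENL dYEATS libraries, against 0.162 ± 0.123 CPM in MLL-ENL libraries (3.69 ± 0.49 SE, adjusted p = 0.00742, and 0.0507 with limma-voom).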

How the data were processed

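Poly(A) RNA was sequenced from 2 libraries each of MLL-ENL dYEATS and MLL-ENL cells; groups were taken from the sample titles. Per the submitters' processing notes, the tools were STAR 2.7.8a, RSEM 1.3.3, FastQC 0.11.8 and cutadapt 2.3, with build GRCm38; settings, strand and annotation release are not given there. The authors deposited expected counts per gene, which were whole numbers and were used as such, and FPKM, which the authors scaled by transcript length and depth. Of 55426 genes 33627 were at 0 in all libraries.

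Adhesion genes, further lists and tests were chosen with earlier results of these data known. Positions are those of GENCODE M21 (55240 identifiers matched). Counts were filtered with filterByExpr (13245 genes kept), scaled by TMM and tested with edgeR 4.0.16 (glmQLFit, legacy set to true; R 4.3.3) over all genes, with Benjamini-Hochberg adjustment and a call at an adjusted p under 0.05. CPM use TMM-scaled totals, and the SE is the log2 fold change over the square root of F. Residual degrees of freedom were 2, with a prior of 3.41. FPKM were compared with limma 3.58.1 on log2(FPKM + 1) and log2(FPKM + 0.1), and counts also with DESeq2 1.42.0. Counting intervals cover counting error only. The script was tested on simulated data. All 35 adhesion genes were named, and of each further list up to 3 called genes per direction with the largest change at 1 CPM or more in the higher group. Promoter windows were matched by symbol for 24 of the 35 genes; protein sequences were not used here. Some genes that the rule takes are not reported here.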

Additional observations from a re-analysis of the deposited data

How the results depend on the processing

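Pecam1, Milr1 and Pcdh7 kept their calls under all 15 alternatives and Itgax under the 14 in which it was tested, although on log2(FPKM + 1), a scale that understates differences of low genes, Itgax was at 0.61 and Pcdh7 at 2.59. Pecam1 was at 2.04 there, with an FPKM fold of 4.68 before any pseudocount. A minimum of 5 CPM in 2 libraries, which leaves fewer genes and removes Itgae, Itgax, Itgb7 and Cd9, gave 545 genes higher and 805 lower over all genes. On log2(FPKM + 1) 837 genes were lower, and without a filter 293 were higher and 381 lower, with 5 adhesion genes higher (Itgax, Pecam1, Milr1, Pcdh7 and Cd81) and 0 lower, so that Cd44 (adjusted p = 0.106), Icam2 (0.0903) and Itgae (0.151), among others, were lost; the cause was not tested. A replicate block called 1435 genes higher and 1698 lower, and 10 and 3 adhesion genes, with Itgam (adjusted p = 0.0489) and Cd53 (0.0445) gained and Fermt3 lost (0.0717); the replicate numbers are not said to mark a batch, and the differences between replicates correlated at -0.0677 between the groups. Removal of the length trend gained Vcam1 (0.0224). Leaving out 1 library gave 573 to 4581 genes higher and 859 to 4507 lower, and 5 to 19 and 2 to 11 adhesion genes, with the lone library of a group assumed to vary like the other pair. Of the 21 further genes that the naming rule takes, 17 lost their call under at least 1 alternative.

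Signs turned for 8 genes that were not called. For Itga4 the log2 fold change was -0.0029 with the 5 CPM minimum, -0.038 with the length trend removed and -0.38 to 0.55 with 1 library left out. Leaving out 1 library gave -0.33 to 0.12 for Itga6, -0.091 to 0.67 for Itgal, -0.022 to 0.82 for Itgav, -0.0031 to 0.44 for Itgb2, -0.19 to 0.012 for Itgb5, -0.063 to 0.85 for Itgb7 and -0.13 to 0.015 for Cd47. On FPKM, Itgb5 was at 0.064 (0.066 with a pseudocount of 0.1, 0.064 without a filter) and Cd47 at 0.20 in all 3 fits. Depth limits the genes under 1 CPM, and the MLL-ENL pair limits the integrin α genes.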
